A study of Homo sapiens with 6 samples.

Results

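The genes described here encode the enzymes that add methyl groups to lysines of histones and the enzymes that remove them, together with close relatives that share their catalytic fold. Members were chosen by gene name: the KDM, KMT2, KMT5, SETD, SETDB, SUV39H, EHMT, EZH, NSD, SMYD and PRDM families, DOT1L and ASH1L, without the Y-linked KDM5D. The table of 58735 features holds 67 of them. A count in at least 1 library was found for 65, and 62 were abundant enough to be tested, among 16210 tested genes.

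The study compared RNA from shACSS2 cells (n = 3 libraries) with RNA from NS cells (n = 3 libraries). Both groups are given as BE(2)-C, a human neuroblastoma cell line, grown in DMEM with calf serum, infected with lentivirus and kept under puromycin. The shACSS2 cells carry a short hairpin RNA against ACSS2 and are labelled as ACSS2 deficient, while the NS cells carry a non-silencing hairpin and are labelled as wild type. ACSS2 is the nuclear and cytosolic enzyme that makes acetyl-CoA from acetate. The sample titles write the reagent as siACSS2, and the treatment text in another place calls the knockdown line shNgBR, so the labels are not uniform. The number of hairpins is not stated, and nothing says whether the cells are clones or whether each library had its own culture. The p-values therefore reflect how much these samples vary, which may be a technical spread.

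Methyl marks on histone lysines are written by SET-domain enzymes, and by DOT1L, which has no SET domain, with S-adenosylmethionine as the methyl donor. They are erased by the flavin-dependent KDM1 enzymes and by the JmjC enzymes, which use iron, oxygen and 2-oxoglutarate. Methylation of lysine 4 of histone H3 marks promoters and enhancers, that of lysines 9 and 27 marks silenced chromatin, and that of lysine 36 marks transcribed gene bodies. The KDM6 and EZH enzymes act on lysine 27, and KMT5 enzymes on lysine 20 of histone H4.

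Library totals ran from 16617885 to 20831599 counts. ACSS2 stood at 4.67, 5.14 and 6.16 CPM in the shACSS2 libraries, against 20.8, 20.4 and 20.2 CPM in the NS libraries, a log2 change of −1.94 ± 0.145 (SE; quasi-likelihood test of edgeR with Benjamini-Hochberg adjusted p = 1.95e-06). CPM here are TMM-normalised read counts scaled to a common library size, after composition factors. Of 12 sympathoadrenal neuroblastoma markers, PHOX2A, TH and TFAP2B had 0 counts in every library, and GATA3 and ISL1 alone had a mean of at least 5 CPM. Their summed level was 42.3 to 49.2 CPM in shACSS2 and 37.8 to 44.3 CPM in NS. The summed level of 5 epithelial markers, mostly KRT8 and KRT18, was 387 to 462 CPM in shACSS2 and 342 to 362 CPM in NS, and that of 5 fibroblast markers was 29 to 39.6 CPM in shACSS2 and 25.4 to 28.2 CPM in NS, with COL1A2 at 0. MYCN, which is amplified in BE(2)-C, averaged 0.787 ± 0.308 CPM in shACSS2 and 1.75 ± 0.313 CPM in NS (SD, n = 3 each). The defining markers of the labelled cell type were thus partly absent. The part of these differences in the results was not tested. The library shACSS2 replicate 1 stood apart by base composition: over 11895 genes, its deviation from the group mean had a Spearman coefficient of −0.749 with GC content, against 0.637 and 0.535 in shACSS2 replicates 2 and 3. In bulk RNA, fewer cells of a kind and less RNA per cell cannot be told apart.

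Of the 62 tested members, 19 fell, 3 rose and 40 did not pass the test (edgeR quasi-likelihood test, adjusted p of 0.05 over all genes). The share that fell was 30.6%, beside 9.64% of all tested genes, and the share that rose was 4.84%, beside 7.48%. The median log2 change of the members was −0.15, and that of all tested genes 0.0025. Scaled by library totals, these medians were −0.22 and −0.07, with 22 members lower and 3 higher. In 26 members every shACSS2 library lay below every NS library, and in 8 every shACSS2 library lay above (18.7% and 17.6% of all tested genes). All 22 members past the test are among these, but the test that chose them used the same libraries, so their lack of overlap adds no support. Most changes were modest: apart from PRDM4, the members that fell had log2 changes from −0.71 to −0.29, and the members that rose from 0.38 to 0.43.

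The demethylases were the class with the most falls. Of 17 KDM genes, 9 fell (52.9%, beside 9.64% of all tested genes), 0 rose and 8 did not pass the test. Of the KDM genes 15 had a log2 change below 0, as had 8057 of all 16210 tested genes. That 15 was 14 to 16 under the other scalings, filters and omissions of a library, and 11 with the length correction. The KDM genes are long, with a median of 8727 exon bases, and 18.3% of all tested genes of 7111 bases or more fell. Of 34 other SET-domain genes and DOT1L, 8 fell, 3 rose and 23 did not pass the test. Of 11 tested PRDM genes, 2 fell, 0 rose and 9 did not pass the test. No set test was made of these counts. Counts of calls depended on single libraries: 5 members were lower and 1 higher without NS replicate 1, 8 and 1 without NS replicate 3, 11 and 2 without shACSS2 replicate 3, and 23 and 4 without shACSS2 replicate 1. PRDM4, KDM6B, KDM7A, KMT2E and KMT5B were past the test without each of the 6 libraries in turn, with edgeR adjusted p of at most 0.0359.

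**Figure D1:**
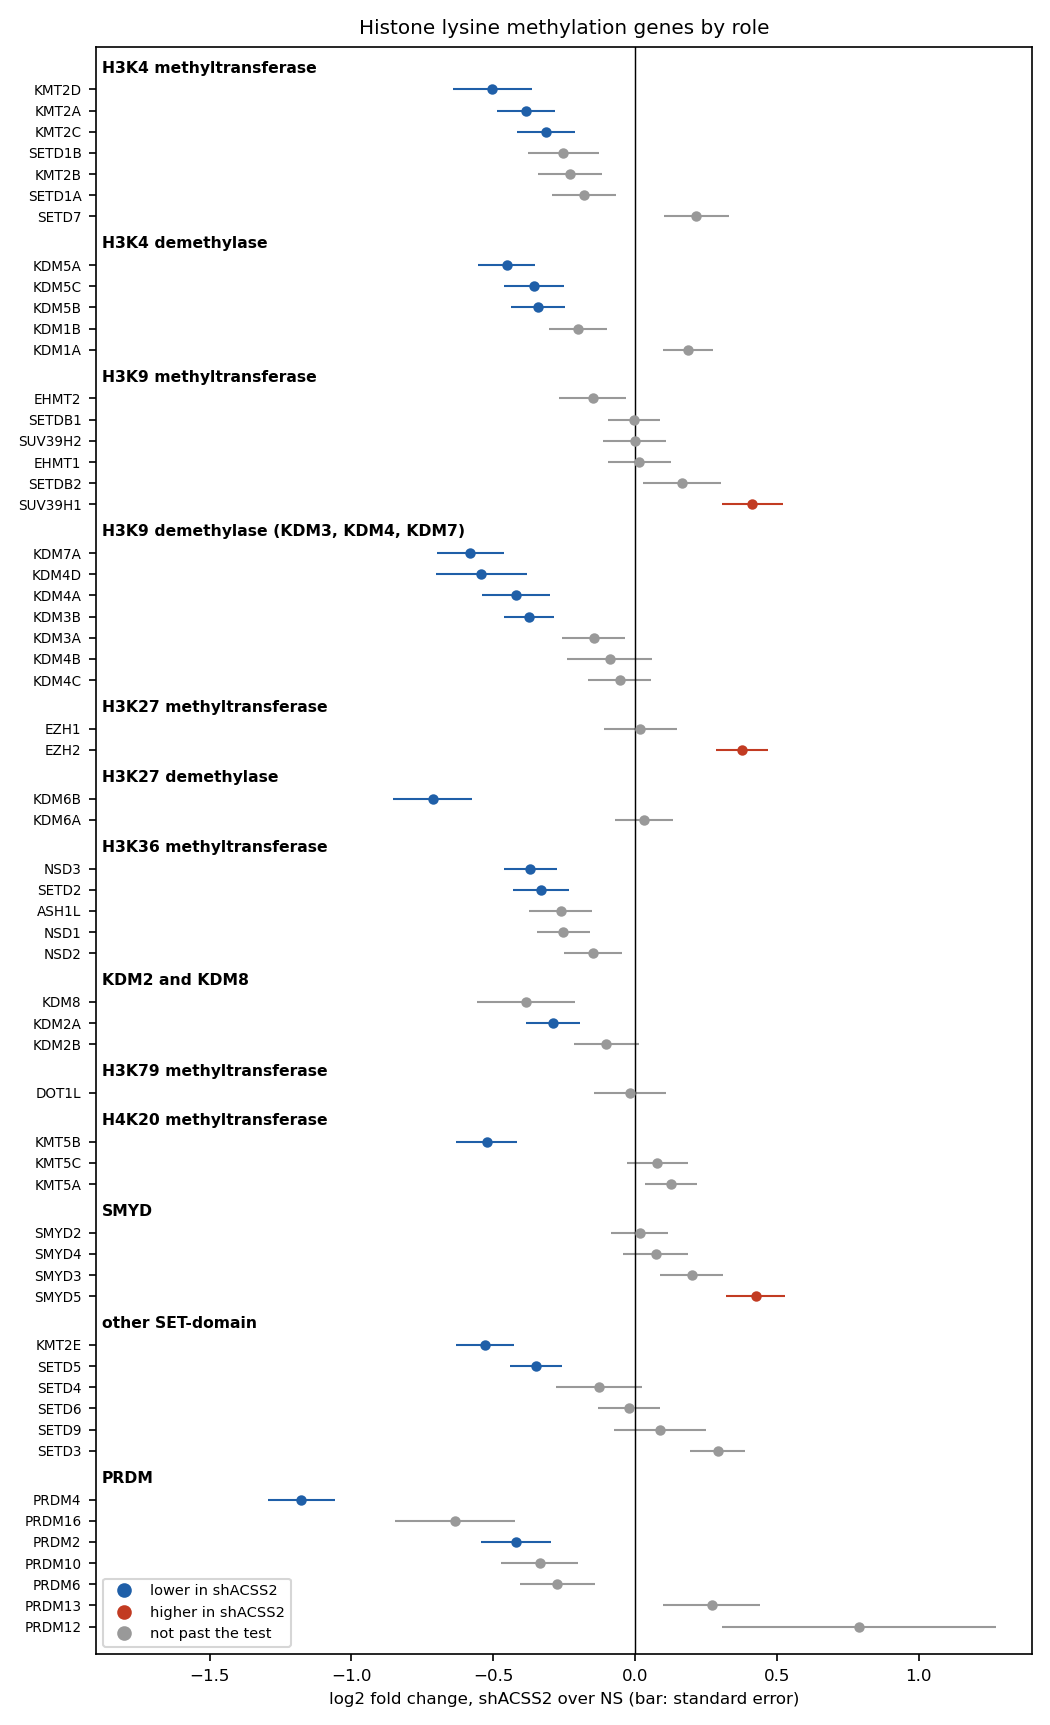
Log2 change of 58 tested members, with the PRDM genes limited to those named in the text, shACSS2 over NS, with its standard error as a bar, grouped by role (n = 3 libraries a group). The 19 genes that fell lie between −1.18 and −0.29, and the 3 that rose are EZH2, SUV39H1 and SMYD5.

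**Figure D2:**
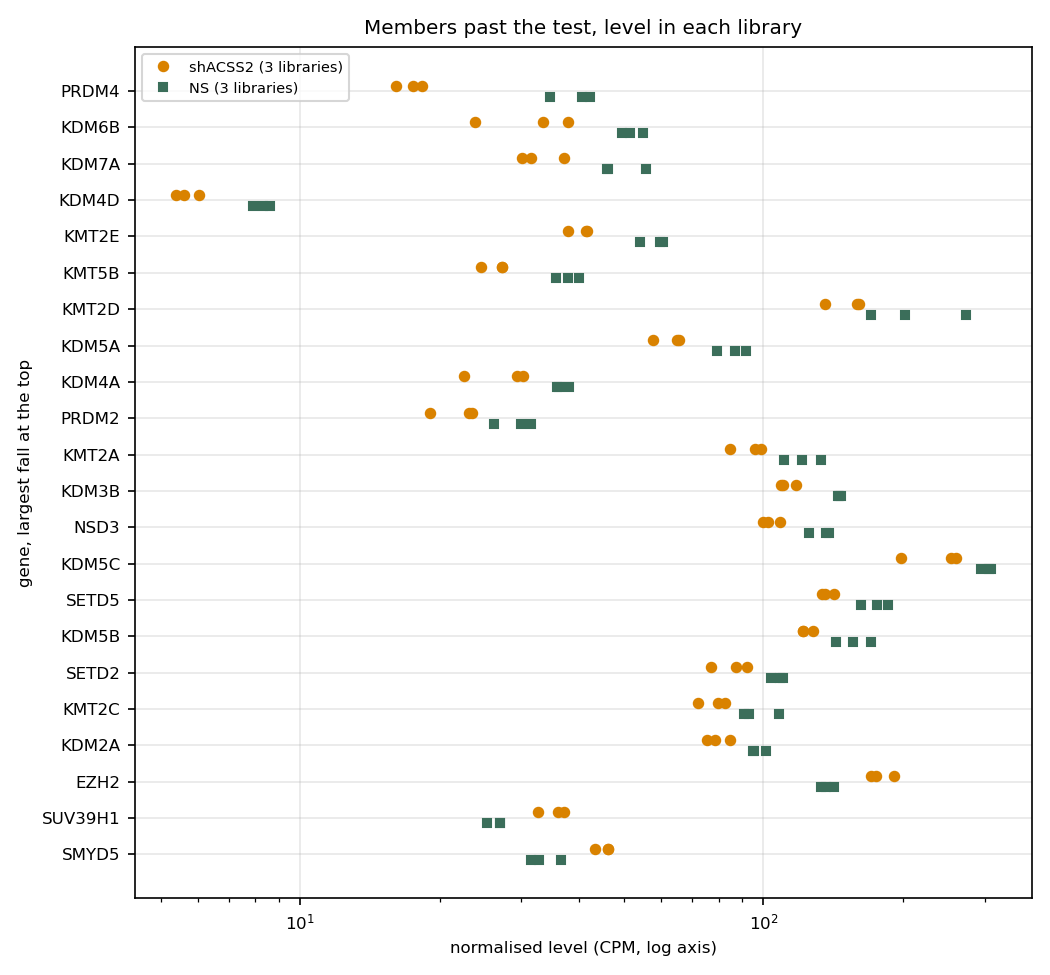
Level of the 22 members past the test in each library, in CPM after composition factors on a log axis, with 3 shACSS2 libraries (circles) above 3 NS libraries (squares) for each gene. The groups do not overlap in any of these genes, which were chosen by a test on the same libraries. Over all tested genes 36.3% do not overlap. The levels run from 5.38 CPM for KDM4D to 310 CPM for KDM5C.

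Among the methyltransferases of lysine 4 of histone H3, 3 of 7 fell, 0 rose and 4 did not pass the test. KMT2D, which marks enhancers, had 135, 159 and 161 CPM in shACSS2, against 273, 202 and 171 CPM in NS (log2 change −0.50 ± 0.139 SE; edgeR adjusted p = 0.0221). NS replicate 1 was far above the other NS libraries, and NS replicate 3 lay only slightly above the highest shACSS2 library. KMT2A, the MLL1 enzyme of developmental gene promoters, had 84.6, 96.0 and 98.6 CPM in shACSS2, against 133, 111 and 121 CPM in NS (log2 change −0.38 ± 0.102 SE; edgeR adjusted p = 0.0183). KMT2C, the partner paralog of KMT2D, averaged 78.3 ± 5.43 CPM in shACSS2 and 97.4 ± 9.3 CPM in NS (SD, n = 3 each; log2 change −0.32 ± 0.102 SE; edgeR adjusted p = 0.0449). KMT2B, SETD1B and SETD1A, the other catalytic subunits of COMPASS complexes, had log2 changes of −0.23 ± 0.114 (SE), −0.25 ± 0.126 (SE) and −0.18 ± 0.112 (SE), so all 6 of these catalytic subunits were below 0, as under each alternative run. Over all tested genes 8057 of 16210 were below 0. The 6 genes have a median of 15196.5 exon bases. All tested genes of at least 10000 bases had a median log2 change of −0.18, and of the 6 only SETD1A and SETD1B are shorter than that. SETD7, a small enzyme outside those complexes, had a log2 change of 0.22 ± 0.114 (SE; edgeR adjusted p = 0.205).

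These 3 calls were not firm. Without NS replicate 1 none of the 3 passed: KMT2D had a log2 change of −0.30 (edgeR adjusted p = 0.17), KMT2A one of −0.32 (0.13) and KMT2C one of −0.24 (0.24). The call of KMT2D also ended without shACSS2 replicate 1 (edgeR adjusted p = 0.231), and those of KMT2A and KMT2C without NS replicate 3 (edgeR adjusted p = 0.066 and 0.0917). KMT2C also failed without shACSS2 replicate 2 or shACSS2 replicate 3 (edgeR adjusted p = 0.163 and 0.0703). Their exon lengths are 20485, 31305 and 20114 bases for KMT2D, KMT2A and KMT2C, and with a correction for gene length in each library their log2 changes were −0.25, −0.07 and −0.07 in that order (edgeR adjusted p = 0.226, 0.623 and 0.654). Of the exon bases of KMT2A, 17.9% are shared with the overlapping gene AP001267.5, so reads there may have been lost or split.

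The KDM5 enzymes, which remove methyl groups from lysine 4, fell together, and the KDM1 enzymes did not pass the test. KDM5A (chromosome 12, 280129 to 389454, minus strand, GRCh38) had 65.8, 57.7 and 65.2 CPM in shACSS2, against 91.5, 79.5 and 87.0 CPM in NS (log2 change −0.45 ± 0.1 SE; edgeR adjusted p = 0.00719). KDM5C had 198, 261 and 254 CPM in shACSS2, against 307, 295 and 310 CPM in NS (log2 change −0.36 ± 0.107 SE; edgeR adjusted p = 0.0318). KDM5B had 121, 121 and 128 CPM in shACSS2, against 156, 143 and 171 CPM in NS (log2 change −0.34 ± 0.0961 SE; edgeR adjusted p = 0.0241). In none of the 3 did the groups overlap, and shACSS2 replicate 1 was the lowest library for KDM5C. KDM1A, the flavin-dependent LSD1, averaged 195 ± 4.99 CPM in shACSS2 and 172 ± 5.51 CPM in NS (SD, n = 3 each), with every shACSS2 library above every NS library (log2 change 0.19 ± 0.0884 SE; edgeR adjusted p = 0.153). KDM1B had a log2 change of −0.20 ± 0.103 (SE; edgeR adjusted p = 0.191).

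Without NS replicate 1 the KDM5 calls ended, at edgeR adjusted p of 0.0606 for KDM5A, 0.123 for KDM5C and 0.0984 for KDM5B. Those of KDM5C and KDM5B also ended without NS replicate 3 (0.112 and 0.133), and that of KDM5B without shACSS2 replicate 2 (0.0753) or shACSS2 replicate 3 (0.0553). With the length correction KDM5A passed the test (log2 change −0.29, edgeR adjusted p = 0.0498), whereas KDM5C (−0.26, edgeR adjusted p = 0.109) and KDM5B (−0.06, edgeR adjusted p = 0.69) did not.

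Of the 6 methyltransferases of lysine 9 in the SUV39H, EHMT and SETDB families, 1 rose and 0 fell, with 5 not past the test. SUV39H1, which methylates pericentric heterochromatin, had 32.6, 36 and 37 CPM in shACSS2, against 26.9, 27.1 and 25.4 CPM in NS (log2 change 0.41 ± 0.107 SE; edgeR adjusted p = 0.016). Every shACSS2 library lay above every NS library. Its paralog SUV39H2 had one of −0.0013 ± 0.111 (SE), and SETDB1, the enzyme recruited by TRIM28 to silence repeats, averaged 61.8 ± 0.89 CPM in shACSS2 and 61.9 ± 0.676 CPM in NS (SD, n = 3 each). EHMT1 and EHMT2, the GLP and G9a pair of euchromatin, had log2 changes of 0.02 ± 0.112 (SE) and −0.15 ± 0.119 (SE). The call of SUV39H1 ended without NS replicate 1 or 3 or shACSS2 replicate 3 (edgeR adjusted p = 0.0783, 0.0844 and 0.0659). An antisense gene shares 20.3% of its exon bases, and whether reads were assigned by strand was not stated.

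Of the 7 demethylases of the KDM3, KDM4 and KDM7 families, most of which act on lysine 9, 4 fell, 0 rose and 3 did not pass the test. KDM7A (chromosome 7, 140084746 to 140177035, minus strand, GRCh38), which removes methyl groups from lysines 9 and 27, had 37.2, 31.6 and 30.1 CPM in shACSS2, against 45.9, 46.1 and 55.7 CPM in NS (log2 change −0.58 ± 0.118 SE; edgeR adjusted p = 0.00428). KDM3B, a demethylase of lysine 9, had 109, 118 and 110 CPM in shACSS2, against 147, 145 and 145 CPM in NS (log2 change −0.37 ± 0.0896 SE; edgeR adjusted p = 0.011). The NS libraries were almost equal for KDM3B, and the groups were well apart. KDM4A and KDM4D, which act on trimethylated lysine 9, had log2 changes of −0.42 ± 0.121 (SE; edgeR adjusted p = 0.0273) and −0.54 ± 0.159 (SE; edgeR adjusted p = 0.0293). KDM4D was the scarcest member that fell, at 5.68 ± 0.339 CPM in shACSS2 and 8.27 ± 0.337 CPM in NS (SD, n = 3 each).

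Their paralogs KDM3A, KDM4B and KDM4C had overlapping groups. KDM4B had 61.9, 104 and 102 CPM in shACSS2, against 96.4, 88.0 and 101 CPM in NS, so shACSS2 replicate 1 alone was low (log2 change −0.09 ± 0.151 SE), and without that library the value was 0.12 (edgeR adjusted p = 0.291). KDM3A, a known target of the hypoxia response, had a log2 change of −0.15 ± 0.111 (SE; edgeR adjusted p = 0.393). The KDM3B call ended without NS replicate 1 (edgeR adjusted p = 0.0664), and that of KDM4A without NS replicate 1, 2 or 3 (0.0905, 0.0769 and 0.084). KDM4D lost its call without NS replicate 1, NS replicate 3, shACSS2 replicate 2 or shACSS2 replicate 3 (edgeR adjusted p = 0.116, 0.0923, 0.0903 and 0.0554). With the length correction all 4 genes that fell passed the test, at log2 changes from −0.63 for KDM4D to −0.30 for KDM3B. KDM4A shares 40.2% of its exon bases with the overlapping gene AL451062.3, which makes its value uncertain.

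On lysine 27 the writer EZH2 rose and the eraser KDM6B fell. EZH2 (chromosome 7, 148807383 to 148884321, minus strand, GRCh38), the catalytic subunit of Polycomb repressive complex 2 in dividing cells, had 191, 170 and 175 CPM in shACSS2, against 137, 133 and 142 CPM in NS (log2 change 0.38 ± 0.0919 SE; edgeR adjusted p = 0.0116). KDM6B (chromosome 17, 7839904 to 7854796, plus strand, GRCh38), an inducible demethylase, had 23.8, 37.9 and 33.4 CPM in shACSS2, against 51.6, 49.5 and 54.9 CPM in NS (log2 change −0.71 ± 0.139 SE; edgeR adjusted p = 0.00333). The groups did not overlap in either gene, and shACSS2 replicate 1 was at once the highest library for EZH2 and the lowest for KDM6B. EZH1, the paralog of EZH2, and KDM6A, the X-linked paralog of KDM6B, had log2 changes of 0.02 ± 0.128 (SE) and 0.03 ± 0.102 (SE). EZH2 lost its call without NS replicate 1 (log2 change 0.37; edgeR adjusted p = 0.0767). With the length correction the values were 0.36 for EZH2 and −0.66 for KDM6B (edgeR adjusted p = 0.0162 and 0.0076).

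All 5 methyltransferases of lysine 36 of histone H3 had a log2 change below 0, as had 8057 of all 16210 tested genes. Of the 5, 2 fell (40%, beside 9.64% of all tested genes), and with the length correction NSD2 turned to 0.10. The 5 genes are long, from 10099 exon bases for SETD2 to 19776 for NSD2. All tested genes of at least 10000 bases had a median log2 change of −0.18, and 23.5% of them fell. NSD3, which is encoded on chromosome 8, had 109, 102 and 99.6 CPM in shACSS2, against 139, 126 and 137 CPM in NS (log2 change −0.37 ± 0.0929 SE; edgeR adjusted p = 0.0139). SETD2, the enzyme that trimethylates lysine 36 behind RNA polymerase, had 92.1, 77.1 and 87.1 CPM in shACSS2, against 109, 104 and 110 CPM in NS (log2 change −0.33 ± 0.0975 SE; edgeR adjusted p = 0.0292). In both genes the groups were apart. NSD1 and ASH1L did not pass the test, at −0.25 ± 0.0934 (SE; edgeR adjusted p = 0.0728) and −0.26 ± 0.111 (SE; edgeR adjusted p = 0.114), although their groups did not overlap either, and NSD2, the most abundant of the 5 in CPM, stood at −0.15 ± 0.102 (SE). NSD3 lost its call without NS replicate 1 or 3 or shACSS2 replicate 3 (edgeR adjusted p = 0.0914, 0.0638 and 0.0659). SETD2 lost its call without any of these (0.121, 0.107 and 0.0739) or without shACSS2 replicate 2 (0.138), and both calls ended with the length correction, at −0.17 and −0.21 (edgeR adjusted p = 0.203 and 0.14).

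KDM2A, which removes methyl groups from lysine 36 at CpG islands, had 75.3, 78.7 and 84.5 CPM in shACSS2, against 101, 94.9 and 95.2 CPM in NS (log2 change −0.29 ± 0.0941 SE; edgeR adjusted p = 0.0457). Its groups were apart. The call ended without each library in turn other than shACSS2 replicate 1 (edgeR adjusted p from 0.0701 to 0.196), with the replicate block (0.0668), with no count filter (0.077) and with the length correction (log2 change −0.16; edgeR adjusted p = 0.256). KDM2B had a log2 change of −0.10 ± 0.115 (SE), and KDM8 one of −0.38 ± 0.172 (SE; edgeR adjusted p = 0.133). DOT1L, the methyltransferase of lysine 79, had 102, 143 and 151 CPM in shACSS2, against 143, 124 and 134 CPM in NS (log2 change −0.02 ± 0.127 SE; edgeR adjusted p = 0.947). As with KDM4B, shACSS2 replicate 1 was the lowest library and the other shACSS2 libraries were not.

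Of the 3 enzymes that methylate lysine 20 of histone H4, KMT5B alone fell. KMT5B (chromosome 11, 68154863 to 68213828, minus strand, GRCh38) had 27.2, 27.2 and 24.6 CPM in shACSS2, against 35.6, 37.8 and 39.9 CPM in NS (log2 change −0.52 ± 0.108 SE; edgeR adjusted p = 0.00455). KMT5C, which like KMT5B adds the later methyl groups, had a log2 change of 0.08 ± 0.108 (SE; edgeR adjusted p = 0.657). KMT5A, which adds the first methyl group and acts in the cell cycle, had one of 0.13 ± 0.0922 (SE; edgeR adjusted p = 0.361), with every shACSS2 library above every NS library. KMT5B passed the test without each library in turn (edgeR adjusted p at most 0.033) and with the length correction (log2 change −0.43; edgeR adjusted p = 0.0146).

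Of the remaining SET-domain genes, 2 fell and 1 rose. KMT2E, a relative of the KMT2 enzymes whose SET domain has no established histone methyltransferase activity, had 41.7, 37.9 and 41.3 CPM in shACSS2, against 60.6, 54.0 and 59.8 CPM in NS (log2 change −0.53 ± 0.102 SE; edgeR adjusted p = 0.00303). SETD5, a gene of neurodevelopmental disorders with a SET domain like that of KMT2E, had 135, 142 and 134 CPM in shACSS2, against 175, 162 and 186 CPM in NS (log2 change −0.35 ± 0.0928 SE; edgeR adjusted p = 0.0183). SMYD5, a protein with a SET and a MYND domain, had 46.1, 46.2 and 43.2 CPM in shACSS2, against 36.6, 31.5 and 32.8 CPM in NS (log2 change 0.43 ± 0.105 SE; edgeR adjusted p = 0.0125). All 3 had groups that did not overlap. SETD3, which methylates a histidine of actin, had 70.5, 69.5 and 67.4 CPM in shACSS2, against 56.1, 52.7 and 60.5 CPM in NS, and lay just past the threshold on the side without a call (log2 change 0.29 ± 0.0975 SE; edgeR adjusted p = 0.05002). With DESeq2 its adjusted p was 0.0328. SETD5 lost its call without NS replicate 1 or 3 or shACSS2 replicate 3 (edgeR adjusted p = 0.0912, 0.099 and 0.0739) and with the length correction (−0.21; 0.122). SMYD5 lost its call without NS replicate 3 (0.0651). SMYD2, SMYD3 and SMYD4 had log2 changes from 0.02 to 0.20, and SMYD1, an enzyme of heart and skeletal muscle, had 0 counts in every library.

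The PRDM proteins carry a PR domain related to the SET domain and a row of zinc fingers, and most act as transcription factors. PRDM4 (chromosome 12, 107732866 to 107761272, minus strand, GRCh38), first described as a partner of the neurotrophin receptor p75, had the largest fall of all members. It had 16.1, 18.3 and 17.5 CPM in shACSS2, against 42.2, 34.7 and 40.7 CPM in NS (log2 change −1.18, a fitted fold of 0.442; SE 0.118; edgeR adjusted p = 2.57e-05). The groups were far apart, and the adjusted p without each library in turn was at most 0.000425. PRDM2, known as RIZ and a writer of lysine 9, had 23.5, 19.0 and 23.2 CPM in shACSS2, against 26.2, 30.0 and 31.5 CPM in NS (log2 change −0.42 ± 0.123 SE; edgeR adjusted p = 0.0294). Its call ended without each library in turn other than shACSS2 replicate 1 (edgeR adjusted p from 0.0501 to 0.133) and with the length correction (−0.28; edgeR adjusted p = 0.135). PRDM16, a regulator of brown fat and of neural and blood stem cells, had 4.61, 10.2 and 7.84 CPM in shACSS2, against 12.5, 10.5 and 12.1 CPM in NS (log2 change −0.63 ± 0.212 SE; edgeR adjusted p = 0.0505), with shACSS2 replicate 1 lowest, and passed with DESeq2 (adjusted p = 0.0299).

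Of the other PRDM genes, the neural factors PRDM12 and PRDM13 had log2 changes of 0.79 ± 0.484 (SE) and 0.27 ± 0.171 (SE), neither past the test. PRDM6 and PRDM10 had values of −0.27 ± 0.134 (SE) and −0.34 ± 0.135 (SE). PRDM1, PRDM7 and PRDM9 had counts but averaged 0.145 to 0.338 CPM and were not tested. PRDM14, a factor of pluripotent and germ cells, had 0 counts in every library. A count of 0 over 108405728 counts allows up to 0.0277 CPM (3 counts over all libraries, counting error only, since PCR copies were not told apart by molecular identifiers).

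Per length, the most abundant members over all 6 libraries were EZH2 with 35.0, KDM1A with 33.7, KDM5C with 31.0, SETD1A with 19.0 and KMT5A with 17 CPM per kilobase of annotated exons. The order of the first 3 differed by group: EZH2, KDM1A and KDM5C had 39.5, 35.9 and 27.2 CPM per kilobase in shACSS2, against 30.4, 31.6 and 34.8 in NS. The median of the tested members was 6.08 CPM per kilobase. PRDM12 lay at 0.349. On this scale EZH2 stood far above EZH1, at 3.82, and KDM6A, at 6.61, near KDM6B, at 5.77.

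The ratio of counts of related genes within a library does not depend on scaling between libraries, and it was taken for 14 pairs. In 4 pairs the groups did not overlap. The ratio of KDM6B to KDM6A was 0.46, 0.832 and 0.732 in shACSS2, against 1.10, 1.03 and 1.22 in NS, a log2 difference of −0.77. The ratio of KMT5C to KMT5B was 1.63, 2.01 and 2.24 in shACSS2, against 1.38, 1.26 and 1.22 in NS, a log2 difference of 0.59. SUV39H2 to SUV39H1 stood at 1.66, 1.18 and 1.42 in shACSS2, against 1.81, 1.90 and 1.94 in NS (log2 difference −0.42), and KDM1B to KDM1A at 0.324, 0.302 and 0.270 in shACSS2, against 0.418, 0.366 and 0.389 in NS (log2 difference −0.39). The exact two-sided permutation test gave p = 0.1 for each of the 4, the smallest value that 3 against 3 libraries allow, and 0.255 when adjusted over the 14 pairs. The EZH1 to EZH2 ratio, at 0.121, 0.184 and 0.15 in shACSS2 and 0.200, 0.180 and 0.198 in NS, overlapped through shACSS2 replicate 2. The ratios are of counts, not of levels per length, and were not corrected for GC content. In the 4 pairs that did not overlap, GC content differed between the genes. It was 62.4% for KDM6B and 43.5% for KDM6A, and 66.1% for KMT5C and 40.7% for KMT5B. SUV39H2 had 41.1% and SUV39H1 57.6%, and KDM1B had 41.6% and KDM1A 50.8%. The part of GC content in these ratios was not tested.

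**Figure D3:**
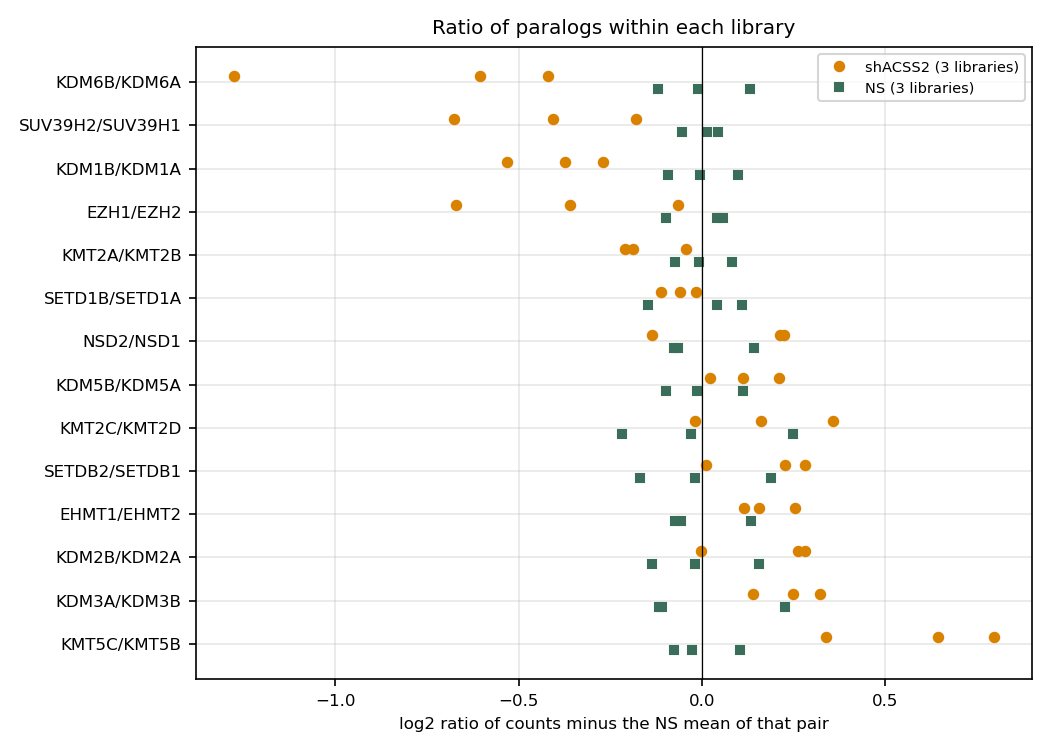
Log2 ratio of counts of 2 related genes in each library, less the NS mean of that pair, for 14 pairs, with 3 shACSS2 libraries (circles) and 3 NS libraries (squares). The groups are apart for KDM6B/KDM6A, SUV39H2/SUV39H1 and KDM1B/KDM1A, which are lower in shACSS2, and for KMT5C/KMT5B, which is higher.

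Gene length moved with these changes. The tested members have a median exon length of 8138 bases, beside 4585 for all tested genes, and the 19 that fell have one of 10099 against 7116 for the 40 without a call and 3380 for the 3 that rose. The Spearman coefficient between log2 change and exon length was −0.38 over 62 members and −0.21 over 16210 genes, which share the same libraries. Of all tested genes in the longest of 4 equal classes, 7111 bases or more, 18.3% fell, and of the 36 members there 16 fell (44.4%). Among all tested genes of at least 10000 bases 23.5% fell, and of 23 such members 10 fell (43.5%). In the shorter classes 3 of 26 members fell. From the shortest class up these were 0 of 2, 1 of 8 and 2 of 16 members, beside 4.26%, 6.43% and 9.57% of all tested genes. With a smooth correction for length in each library, 9 members were lower (14.5%, beside 8.03% of all tested genes) and 5 higher. The median log2 change of the members was then −0.06, and 1023 of all 16210 tested genes were higher. The members that fell with that correction were PRDM4, KDM6B, KDM4D, KDM7A, KMT5B, KDM4A, KMT2E, KDM3B and KDM5A, of which 6 are demethylases. With GC content corrected as well, an alternative chosen after seeing the data, 16 members were lower (25.8%) and 8 higher. Of all 16210 tested genes, 13.4% were then lower, and 2095 genes were higher.

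**Figure D4:**
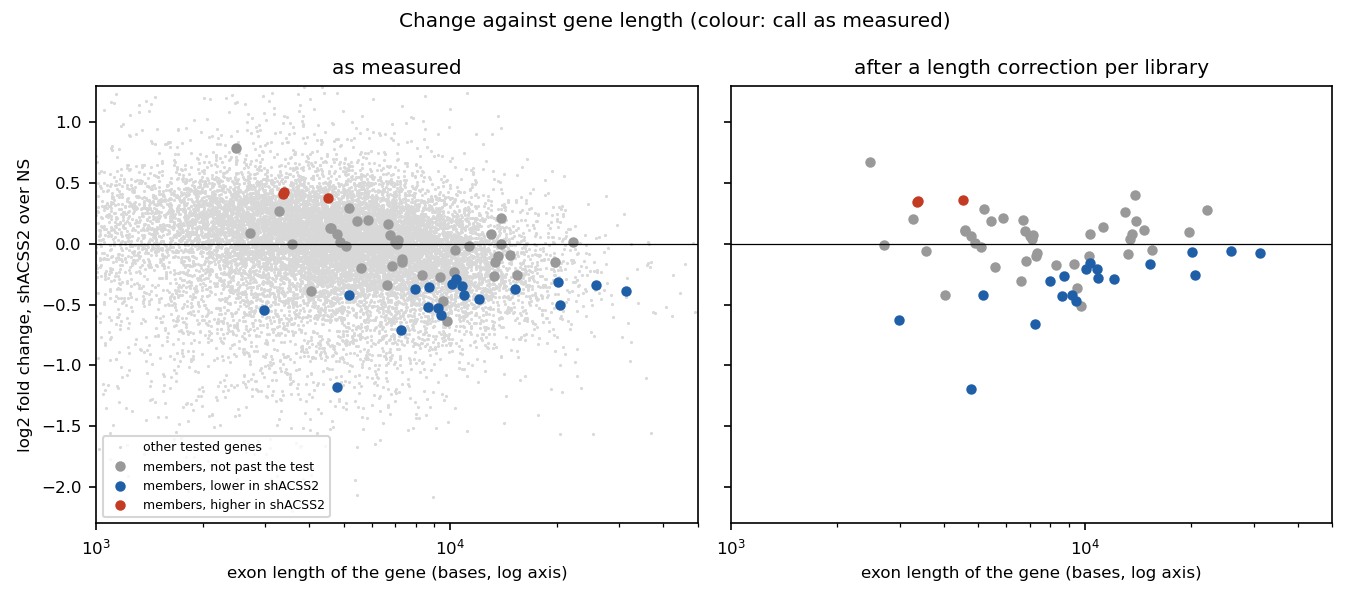
Log2 fold change, shACSS2 over NS, against the annotated exon length on a log axis, with tested genes in grey and members coloured by their call as measured. Both axes are cut, so tested genes of extreme length or change are not shown. The left panel shows the measured values and the right panel the members after a length correction in each library, where KMT2A, KMT2C and KDM5B, of 31305, 20114 and 25882 bases, lie close to 0.

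The falls were also set against a short sequence that an earlier analysis of these same fold changes had picked out in 3′ untranslated regions, ATGCTCA or TGCTCAA (on the transcript strand, overlapping copies counted once). Because the sequence was picked from these data, its counts are a description with no test. Of the 61 tested members with an annotated 3′ untranslated region of at least 50 bases, 12 hold it in their longest annotated form (19.7%), beside 18.0% of 13262 tested genes. It is present in 6 of the 19 members that fell (31.6%), in 6 of 39 without a call (15.4%) and in 0 of the 3 that rose. Over all tested genes the shares are 43.9% of those that fell, 16.0% of those without a call and 6.75% of those that rose. The 3′ untranslated regions of the members that fell have a median length of 1944 bases, beside 1803 for members without a call and 1291 for those that rose. Over all tested genes the medians are 2229 bases for those that fell, 1376 for those without a call and 938 for those that rose. The shares were not adjusted for this length.

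PRDM4, with the largest fall, holds the sequence at 2 places. The windows below are transcript-strand sequence of GENCODE release 29 on GRCh38, 5′ to 3′, with the match in capitals. They are shown so that the matches of the members that fell can be read side by side, with those of SETD3, which did not fall, for contrast.
PRDM4, chr12:107733889-107733909, minus strand: tgccttcTGCTCAAacaaatc
PRDM4, chr12:107732995-107733015, minus strand: gctctccTGCTCAAggcacaa
KDM6B, chr17:7854261-7854281, plus strand: ctcatggTGCTCAAacccgct
KDM5A, chr12:281087-281107, minus strand: tgtgtgtATGCTCAggttccc
KMT2A, chr11:118522959-118522979, plus strand: gactgccTGCTCAAggacact
SETD5, chr3:9477655-9477675, plus strand: aggtgttTGCTCAAatgaggg
KDM2A, chr11:67256412-67256432, plus strand: tgaggagATGCTCAgtagcag
SETD3, chr14:99412584-99412604, minus strand: ctttaaaATGCTCAtttattg
The PRDM4 matches start at bases 308 and 1202 of a 3′ untranslated region of 1344 bases, and the KDM6B match at base 747 of 1275. KDM7A, KMT2E and KMT5B, which passed the test without each library in turn, hold no match, nor do the other 10 members that fell. Whether these cells express the annotated forms was not examined, and the part of the sequence in the falls was not tested.

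Partner genes were read beside the 7.48% of all tested genes that rose and the 9.64% that fell, and with lists this short a single call is near those shares. Of 11 subunits of Polycomb repressive complex 2 outside the EZH genes, 1 rose and 1 fell, with 9 not past the test: RBBP7, a histone chaperone, averaged 449 ± 58.2 CPM in shACSS2 and 311 ± 26.3 CPM in NS (SD, n = 3 each; log2 change 0.53 ± 0.107 SE; edgeR adjusted p = 0.00413), and SUZ12, a core subunit, had a log2 change of −0.33 ± 0.0972 (SE; edgeR adjusted p = 0.0283). Of 12 COMPASS partners 1 rose and 3 fell, with 8 not past the test. BOD1L1, a partner of SETD1A, averaged 44.1 ± 3.44 CPM in shACSS2 and 75.1 ± 9.24 CPM in NS (SD, n = 3 each; log2 change −0.77 ± 0.113 SE; edgeR adjusted p = 0.000459). HCFC1 and WDR82, shared subunits, had log2 changes of −0.42 ± 0.112 (SE) and −0.34 ± 0.0898 (SE), and DPY30, a small core subunit, one of 0.42 ± 0.114 (SE).

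Of 10 partners of LSD1 in the CoREST complex, 1 rose and 2 fell, with 7 not past the test. RCOR1, the scaffold that couples LSD1 to nucleosomes, averaged 41.5 ± 3.94 CPM in shACSS2 and 59.1 ± 1.43 CPM in NS (SD, n = 3 each; log2 change −0.51 ± 0.104 SE; edgeR adjusted p = 0.00422), ZMYM3 had a log2 change of −0.36 ± 0.098 (SE), and the deacetylase HDAC1 one of 0.30 ± 0.0918 (SE). Of 11 partners and readers of lysine 9 methylation, 4 fell, 0 rose and 7 did not pass the test. CBX5, the heterochromatin protein HP1 alpha, averaged 199 ± 11.1 CPM in shACSS2 and 294 ± 31.6 CPM in NS (SD, n = 3 each; log2 change −0.57 ± 0.1 SE; edgeR adjusted p = 0.00178), and ZNF644, a DNA-binding partner of G9a and GLP, had a log2 change of −0.59 ± 0.116 (SE; edgeR adjusted p = 0.00334). TASOR (named FAM208A in the table), of the HUSH silencing complex, and ATF7IP, which stabilises SETDB1, each had one of −0.36 (SE 0.0965 and 0.109). Of 11 partners and readers of DOT1L and of lysine 36 methylation, AFF4 and AFF1 fell (−0.39 ± 0.103 SE, and −0.33 ± 0.108 SE), ZMYND11, a reader of methylated lysine 36, rose (0.41 ± 0.128 SE), and 8 did not pass the test.

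Across all 8 partner lists 20 genes passed the test, and 5 of them, BOD1L1, CBX5, RBBP7, RCOR1 and ZNF644, passed without each library in turn (edgeR adjusted p at most 0.039) and with the length correction. The length correction ended 10 of the 20 calls. Among these, log2 changes were −0.19 for AFF1 (edgeR adjusted p = 0.221), −0.18 for ATF7IP (0.259), −0.23 for AFF4 (0.112), −0.24 for TASOR (0.0781), −0.32 for HCFC1 (0.0695), 0.33 for DPY30 (0.0537) and 0.25 for HDAC1 (0.0619). Among those that lost the call, edgeR adjusted p reached 0.127 for SUZ12, 0.132 for HCFC1, 0.124 for WDR82, 0.121 for DPY30, 0.102 for ZMYM3, 0.167 for HDAC1, 0.0934 for TASOR, 0.136 for ATF7IP, 0.092 for AFF4, 0.205 for AFF1 and 0.133 for ZMYND11. Leaving out NS replicate 1 ended each of these 11 calls, and leaving out NS replicate 3 all but that of HCFC1. Leaving out shACSS2 replicate 3 ended those of SUZ12, WDR82, ZMYM3, HDAC1, TASOR, ATF7IP, AFF4 and AFF1, and leaving out shACSS2 replicate 2 the same apart from ZMYM3. Leaving out NS replicate 2 ended those of ATF7IP, AFF1 and ZMYND11, and leaving out shACSS2 replicate 1 that of ZMYND11.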

How the data were processed

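RNA sequencing of 3 shACSS2 and 3 NS libraries was analysed. Whole-number read counts for every gene were deposited, with no normalisation by the authors. Per the submitters' processing notes build hg19 was used, as were featureCounts 1.5.0-p3, fastp, DESeq2 (version written 4.3.1) and HISAT2 2.0.5. How strand and multi-mapping reads were handled was not stated. Every one of the 58735 identifiers was found in GENCODE release 29, an annotation of GRCh38, so the build of the alignment is uncertain. Coordinates, exon lengths, GC content and 3′ untranslated regions come from that release.

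The test was that of edgeR 4.0.16 under R 4.3.3 (TMM factors, default expression filter, robust quasi-likelihood fit, group as the only term) with p-values adjusted by Benjamini-Hochberg across 16210 genes and a threshold of 0.05. Each standard error is the log2 change divided by the root of its F statistic. The procedure was tested on simulated data. DESeq2 1.42.0 and limma 3.58.1 were alternatives, with other scalings and filters, omission of each library, the replicate block, and smooth corrections for GC and length. Libraries of a group differed beyond sampling noise (chi-square per degree of freedom 4.28 to 17.3). Members, gene lists, paralog pairs and the rule for named genes (ACSS2, members past the test, up to 2 of smallest p from a role with none, the 5 most abundant per length, members at 0, genes of pairs, and up to 3 past the test per list, or the 1 of smallest p) were chosen with earlier results of these data known. Other genes named (further members without a call, WDR82, ATF7IP) were chosen after their values were seen. Some results are not reported here. Python 3.11.15 was used.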

Additional observations from a re-analysis of the deposited data

How the results depend on the processing

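All 22 calls of members were kept under RLE or upper quartile factors, library totals, a filter of 1 CPM in 3 libraries, DESeq2, voom and the GC correction, and no called member reversed under any alternative run. The count of members lower, 19 as reported, was 6 at an adjusted p of 0.01 and 9 with the length correction, and the count higher, 3 as reported, was 0, 5, 6 and 8 at an adjusted p of 0.01, with the length correction, with the replicate block together with GC and length correction (14 lower), and with GC and length correction (chosen after seeing the data). SETD7 passed the test with the length correction (log2 change 0.40; edgeR adjusted p = 0.0293). Leaving out each library in turn gave 5 to 23 members lower and 1 to 4 higher, and over all genes 708 to 2094 lower and 310 to 1837 higher, against 1563 and 1213 as reported. Over all genes, higher calls numbered 734 with library totals (2108 lower, so 25.8% of calls were higher, against 43.7%), 2177 with the GC correction, 2210 with the replicate block and both corrections and 2095 with both corrections alone, and at an adjusted p of 0.01 there were 330 higher and 680 lower. Of the members described above that did not pass the test, 12 changed sign under some alternative. With GC and length correction DOT1L passed the test (edgeR adjusted p = 0.04995). EHMT1 also passed there, at a log2 change of 0.29 (edgeR adjusted p = 0.00444), as did SETD7 (0.38, 0.00641), SETD3 (0.26, 0.0156) and KDM1A (0.18, 0.0428). KDM1B (−0.22, edgeR adjusted p = 0.0317), PRDM16 (−0.50, 0.0410) and PRDM10 (−0.33, 0.0461) passed as lower. The replicate block with both corrections also called EHMT1 (0.29, edgeR adjusted p = 0.00552), SETD7 (0.37, 0.00236), SETD3 (0.26, 0.0167), KDM1B (−0.22, 0.0354) and PRDM16 (−0.53, 0.0278). With the replicate block and both corrections the value was 0.18 for DOT1L, 0.11 for KDM2B, 0.027 for KDM3A, 0.13 for KDM4B, 0.060 for KDM4C, 0.074 for NSD2, 0.038 for SETDB1 and −0.019 for SMYD2. With GC and length correction the value was 0.18 for DOT1L, 0.11 for KDM2B, 0.027 for KDM3A, 0.14 for KDM4B, 0.058 for KDM4C, 0.079 for NSD2, 0.038 for SETDB1 and −0.017 for SMYD2. With the length correction the value was 0.14 for DOT1L, 0.085 for KDM2B, 0.040 for KDM3A, 0.11 for KDM4B, 0.078 for KDM4C, 0.096 for NSD2 and 0.040 for SETDB1. With the GC correction the value was −0.0012 for SMYD2. With library totals the value was −0.058 for EHMT1, −0.055 for EZH1, −0.041 for KDM6A and −0.056 for SMYD2. With RLE factors the value was 0.0022 for SUV39H2. With upper quartile factors the value was 0.0025 for SETDB1 and 0.0039 for SUV39H2. With no count filter the value was 0.0010 for SUV39H2. With DESeq2 the value was 0.0022 for SUV39H2. Leaving out each library in turn gave −0.12 to 0.14 for DOT1L, −0.061 to 0.12 for EHMT1, −0.10 to 0.12 for EZH1, −0.19 to 0.018 for KDM2B, −0.21 to 0.12 for KDM4B, −0.11 to 0.0060 for KDM4C, −0.031 to 0.066 for KDM6A, −0.017 to 0.0090 for SETDB1, −0.026 to 0.073 for SMYD2 and −0.065 to 0.11 for SUV39H2. The cause was not tested. Same-numbered libraries of the groups deviated with correlations of −0.12, −0.18 and 0.28, so the numbers were not taken as pairs. With the replicate block 3 members were higher and 19 lower, KDM2A was lost and PRDM16 gained. The ACSS2 change and the count ratios of the 14 pairs kept their direction under every alternative run for them.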

Other observations

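Of 8 tested arginine methyltransferases, which share the methyl donor with the lysine enzymes, 1 rose and 1 fell, with 6 not past the test (12.5% each, beside 7.48% of all tested genes higher and 9.64% lower). PRMT5, which makes symmetric dimethylarginine, averaged 170 ± 3.99 CPM in shACSS2 and 137 ± 9.05 CPM in NS (SD, n = 3 each; log2 change 0.31 ± 0.092 SE; edgeR adjusted p = 0.0302), and PRMT2 had a log2 change of −0.31 ± 0.0997 (SE; edgeR adjusted p = 0.0422). Among 12 genes of S-adenosylmethionine and 2-oxoglutarate supply, MTR, the methionine synthase, fell (−0.33 ± 0.0992 SE; edgeR adjusted p = 0.0336). Each of these 3 calls was lost when NS replicate 1 or NS replicate 3 was left out, those of PRMT5 and PRMT2 also without shACSS2 replicate 3, those of PRMT5, PRMT2 and MTR without shACSS2 replicate 2, and that of PRMT2 without NS replicate 2, at edgeR adjusted p of up to 0.181 for PRMT5, 0.143 for PRMT2 and 0.179 for MTR. The length correction ended them too, at log2 changes of 0.25 for PRMT5, −0.24 for PRMT2 and −0.17 for MTR (edgeR adjusted p = 0.0639, 0.111 and 0.212).

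Of 9 JmjC and SET genes outside the naming rule, 8 were tested and 0 passed. PHF2, a demethylase related to KDM7A, had a log2 change of −0.26 ± 0.0994 (SE; edgeR adjusted p = 0.0763), with every shACSS2 library below every NS library.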
